A study of Mus musculus with 11 samples.

Results

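The genes of cellular iron handling were measured in single cells of the mouse brain vasculature. The 9 genes were Tfrc, Trf, Slc11a2 and Steap3 for uptake, Fth1 and Ftl1 for storage, Slc40a1 and Heph for export, and Ireb2 for control. They were chosen by gene symbol, and each symbol matched 1 of the 32287 features in the deposited count tables. Cerebrovascular cells came from 6 R182C-TgN3 mice (CADASIL mice, line Tg350) and 5 WT-TgN3 mice (control mice, line Tg100), with 1 droplet library per mouse. Brains were digested, vessel fragments were captured on beads that bind CD31, which marks the endothelial surface, and the fragments were digested again into single cells. Mice of both genotypes carried a human NOTCH3 transgene, which had the R182C variant in the CADASIL mice and the wild-type sequence in the control mice, and all were untreated. Of the CADASIL mice 3 were 9 months and 3 were 6 months old, and of the control mice 2 were 9 months and 3 were 6 months old, with both sexes in each genotype. No mouse without a transgene was compared.

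Iron reaches cells bound to transferrin, is taken up through the transferrin receptor into endosomes, is reduced there and passes to the cytosol through a divalent metal transporter. Iron that is not used is stored in ferritin, a shell of heavy and light subunits, or leaves the cell through ferroportin together with a ferroxidase. Brain endothelial cells form the barrier that iron has to cross between blood and brain, and the mRNAs of several of these proteins carry iron-responsive elements, hairpins that the iron regulatory proteins bind when iron is scarce.

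The libraries held 66658 barcodes, with 17550806 to 64215050 UMIs (unique molecular identifiers, counted molecules) per library. After filtering, 61625 cells were kept. A cell was placed in a cell type when it had a UMI of at least 4 genes of that type's marker list. Within the endothelial gate, a capillary cell could hold at most 2 arterial, 2 venous and 2 fenestrated markers. An arterial cell could hold at most 0.75 times as many venous as arterial markers, and a venous cell the reverse. Endothelial cells between these gates, 5256 in all, were counted in the endothelial total only. Cells that also passed the gate of an unrelated type were not placed. None of the iron genes named above was on a marker list. The wider list of iron genes, described below, was not free of markers, as it held Lcn2 of the venous gate and Cd163 of the macrophage gate. The gates gave 36331 endothelial cells in all, among them 6307 arterial, 13179 capillary, 9806 venous and 1783 fenestrated endothelial cells, 523 pericytes, 1956 smooth muscle cells (SMCs) and 14134 microglia. Median depth differed between them, from 2983 UMIs per cell in pericytes and 3760 in capillary cells to 7508 in venous cells and 7815.5 in SMCs. The rarest gates held 130 macrophages, with 6 to 19 per mouse, and 136 choroid plexus epithelial cells, with 3 to 34 per mouse. A further 6012 cells reached the marker counts of more than 1 type and were placed in none. They were left out, and 1270 of them came from R182C-TgN3 4 alone. Cells between related types, such as pericytes and SMCs, were counted among them. Of the barcodes, 966 were found in more than 1 library, and the levels were also computed without them. Levels are in CPM, the UMIs of a gene over all UMIs on the usual scale of that unit, after summing over the cells of a type in a mouse, for types with at least 20 cells in that mouse, which left 10 mice for pericytes and 11 for the others. For macrophages and the choroid plexus, mice with at least 5 cells were used instead. A droplet tag lies near the 3′ end of a transcript, so isoforms of these genes were not resolved.

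The hairpins that link these genes were read from the untranslated regions (UTRs) of the GENCODE vM21 transcripts on mm10. The sense strand was searched for a bulged C, 5 bases, the loop CAGTGN and 5 bases that pair with the first 5 by Watson-Crick or G-T pairs. They are shown because 4 of the 9 iron genes held a match, and because a hairpin before the coding sequence is known to hold back translation while hairpins after it are known to guard the mRNA. The loop is in capitals. Among the 5′ UTRs, 30 of 20105 genes had a match (0.149%), and these included 3 of the iron genes.
Fth1 5′ UTR, chr19:9982732-9982760, plus strand: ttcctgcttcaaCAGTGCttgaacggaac
Ftl1 5′ UTR, chr7:45459779-45459807, minus strand: gtcttgcttcaaCAGTGTttgaacggaac
Slc40a1 5′ UTR, chr1:45925465-45925493, minus strand: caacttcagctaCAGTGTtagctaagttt
Among the 3′ UTRs, 127 of 20858 genes had a match (0.609%), and the only iron gene with one was Tfrc, which had 4 sites.
Tfrc 3′ UTR site 1, chr16:32631219-32631247, plus strand: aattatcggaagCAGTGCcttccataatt
Tfrc 3′ UTR site 2, chr16:32631598-32631626, plus strand: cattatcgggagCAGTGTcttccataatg
Tfrc 3′ UTR site 3, chr16:32631663-32631691, plus strand: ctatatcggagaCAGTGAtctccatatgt
Tfrc 3′ UTR site 4, chr16:32631710-32631738, plus strand: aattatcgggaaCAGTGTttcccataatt
A match describes the letters of a transcript, and no protein binding was measured here. Only hairpins of this exact form in annotated UTRs were searched for, so a gene or site without a match may still hold an element of another form.

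For each gene, cell types were ordered by their mean level, and neighbours in that order were compared within mice by a two-sided exact permutation test (sign flips of the log2 difference over mice). Adjustment was by Benjamini-Hochberg over all genes tested in that pair of types. The smallest p that this test allows is 0.000977 with 11 mice and 0.00195 with 10. Of the 54 neighbour pairs, 26 passed an adjusted p of 0.05. Most genes differ between cell types, so the share of all genes called in the same pair is given once for each pair, at or before its first call, and it ran from 29.7% between pericytes and SMCs to 87.2% between venous cells and microglia.

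Tfrc, the transferrin receptor (ENSMUSG00000022797, chr16:32608920-32632794), had its highest levels in capillary and venous endothelial cells. In capillary cells its level was lowest at 281 CPM, had a median of 442 and was highest at 549 CPM (mean 427 ± 80.8, SD, n = 11), and in venous cells the lowest, median and highest levels were 264, 349.6 and 452 CPM (362 ± 67.7). Arterial cells held 69.2, 80.7 and 119.6 CPM at the same 3 points (89.0 ± 17.3). Every mouse was far lower in arterial than in capillary or venous cells, and the ranges of arterial and venous cells did not overlap. The venous level exceeded the arterial level by 2.01 on the log2 scale (SD 0.24), a 4.04-fold difference, in 11 of 11 mice (adjusted p = 0.00284, exact permutation test; 59.3% of all genes called). Capillary cells exceeded venous cells by 0.23 (SD 0.23) in 10 of 11 mice (adjusted p = 0.0302, exact permutation test; 53.2% called), and this call was lost without the 5% of cells with the most UMIs (log2 0.07, adjusted p = 0.408) and when any of the 6-month mice was left out (adjusted p of 0.0557 to 0.0570). Arterial cells were in turn 1.27 above fenestrated cells (37.7 ± 12.4 CPM; adjusted p = 0.00393, exact permutation test; 46.2% called).

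Outside the barrier endothelium, Tfrc was low. Fenestrated cells, pericytes (35.1 ± 13.5 CPM, n = 10) and SMCs (29.9 ± 5.73 CPM, n = 11) followed each other without a called difference (37.6% of all genes called between fenestrated cells and pericytes). Microglia held 21.1 ± 3.39 CPM, below SMCs in 11 of 11 mice (log2 0.47, adjusted p = 0.00161, exact permutation test; 81.4% called). In microglia the 10 endothelial markers summed to 125 CPM, against 16050.4 CPM in capillary cells. After each cell was thinned to 2000 UMIs, Tfrc was seen in 44.8% of capillary, 45.3% of venous and 14.0% of arterial cells and in 3.99% of microglia, and without thinning in 60.7%, 75.4%, 34.2% and 8.91%, at median depths of 3760, 7508, 6392 and 4986 UMIs. Cells with under 2000 UMIs were left out of the thinned shares, which kept 12017 capillary, 9315 venous and 6134 arterial cells and 12123 microglia.

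**Figure D1:**
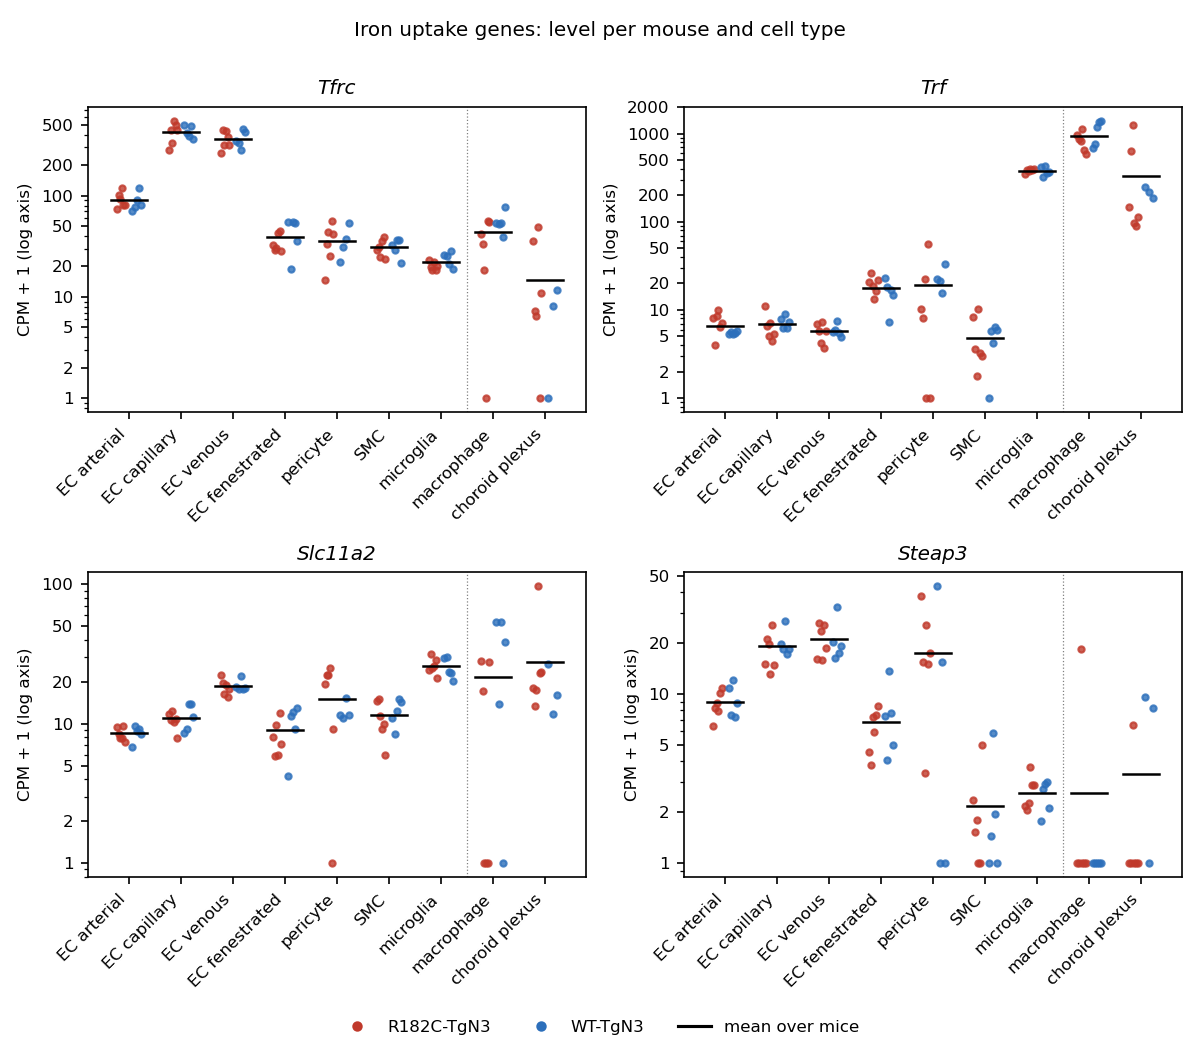
Level of the 4 uptake genes in each cell type, as CPM + 1 on a log axis, with 1 point per mouse coloured by genotype and a black line at the mean over mice. Types to the right of the dotted line use mice with at least 5 cells, the others mice with at least 20. Tfrc is highest in capillary and venous cells at means of 427 and 362 CPM, and Trf in macrophages and microglia at 948 and 381 CPM.

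Trf, transferrin, the iron carrier of blood and of brain fluid (ENSMUSG00000032554, chr9:103204001-103230444), was found mainly in microglia among the larger gates. Its lowest, median and highest levels in microglia were 322, 385 and 435 CPM (381 ± 33.0, n = 11). Microglia exceeded pericytes (18.1 ± 16.6 CPM) by 5.12 on the log2 scale (SD 2.02) in 10 of 10 mice (adjusted p = 0.00587, exact permutation test; 51.2% called). The mice were close together in microglia and no other large gate reached their range.

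Endothelial cells and SMCs held little Trf. Fenestrated cells had 16.9 ± 5.15 CPM and capillary cells 5.92 ± 1.92 CPM, a log2 difference of 1.35 in 10 of 11 mice (adjusted p = 0.00610, exact permutation test; 49.6% called). Capillary, arterial (5.54 ± 1.77), venous (4.73 ± 1.17) and SMC (3.85 ± 2.76) levels followed each other without a called difference.

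Trf is also a gene of oligodendrocytes, so the myelin gene Mbp was read beside it as a sign of free RNA, with UMIs pooled over all mice. Mbp was at 1.05 to 2.30 CPM in arterial, capillary, venous and fenestrated cells and SMCs, against pooled Trf levels of 4.43 to 6.25 CPM in these types other than fenestrated cells, which held 17.4 CPM of Trf. Pericytes held 16.3 CPM of Trf and 7.23 CPM of Mbp. Microglia, macrophages and the choroid plexus held 30.6, 34.7 and 25.7 CPM of Mbp, against 379.8, 984.9 and 265.5 CPM of Trf. Mbp was thus itself uneven between types of the same libraries, and how well it marks free RNA in each type was not tested. The part of free RNA in the Trf values was not tested either.

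Slc11a2, the divalent metal transporter DMT1 (ENSMUSG00000023030, chr15:100387898-100425072), was low and broadly spread. Over the larger gates it ran from 24.8 ± 3.76 CPM in microglia to 7.53 ± 0.948 CPM in arterial cells (n = 11), a 3.29-fold span. Microglia exceeded venous cells (17.7 ± 2.09 CPM) by 0.46 on the log2 scale in 11 of 11 mice (adjusted p = 0.00137, exact permutation test; 87.2% called). The other neighbours, namely pericytes (14.0 ± 7.50, n = 10), SMCs (10.54 ± 3.01), capillary (9.94 ± 1.94), fenestrated (7.98 ± 2.94) and arterial cells, were not called (40.6% of all genes called between venous cells and pericytes, and 77% between capillary cells and SMCs). Within the barrier endothelium venous cells exceeded capillary cells by 0.78 in 11 of 11 mice (adjusted p = 0.00352, exact permutation test).

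Steap3, a ferrireductase that acts on endosomal iron (ENSMUSG00000026389, chr1:120190757-120272705), was a gene of capillary and venous cells at low level. Its lowest, median and highest levels were 14.8, 18.1 and 31.5 CPM in venous cells (19.99 ± 5.29), 12.1, 17.4 and 26.0 CPM in capillary cells (18.1 ± 4.28) and 5.45, 7.83 and 10.99 CPM in arterial cells (7.997 ± 1.74; n = 11 each). The arterial range lay below the other ranges without overlap. Venous and capillary levels did not pass the test (log2 0.13, adjusted p = 0.0557, exact permutation test), whereas arterial cells were 1.21 below venous cells in 11 of 11 mice (adjusted p = 0.00284, exact permutation test).

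Pericytes held 16.5 ± 14.5 CPM of Steap3 from 24 UMIs in all and were not separated from capillary or arterial cells (39.5% and 40.1% of all genes called in these pairs). Fenestrated cells (5.86 ± 2.80 CPM) were 0.46 below arterial cells (adjusted p = 0.0136, exact permutation test), a call lost when 1 more marker was needed for a gate (adjusted p = 0.117). Fenestrated cells were in turn 1.33 above microglia (1.60 ± 0.565 CPM; adjusted p = 0.00188, exact permutation test; 75.7% called). SMCs had 1.17 ± 1.67 CPM.

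Fth1, the ferritin heavy chain with ferroxidase activity (ENSMUSG00000024661, chr19:9980598-9985098), was present in every gate and highest in SMCs among the larger ones. Its lowest, median and highest levels were 2871, 3607 and 4554 CPM in SMCs (3649.5 ± 524) and 1185, 1699 and 3079 CPM in venous cells (1873 ± 554). The ranges of SMCs and venous cells overlapped only through R182C-TgN3 3, the highest venous sample. SMCs exceeded venous cells by 1.00 on the log2 scale (SD 0.39) in 11 of 11 mice (adjusted p = 0.00179, exact permutation test; 77.8% called).

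Venous cells, microglia (1648 ± 261 CPM) and arterial cells (1509 ± 164 CPM) were not separated for Fth1 (87.2% of all genes called between venous cells and microglia, and 86% between microglia and arterial cells). Arterial cells exceeded fenestrated cells (1095 ± 209 CPM) by 0.48 in 11 of 11 mice (adjusted p = 0.00393, exact permutation test), which was lost when 1 marker fewer was needed for a gate (log2 0.10, adjusted p = 0.176). Fenestrated, capillary (1022 ± 160 CPM) and pericyte levels (872 ± 94.0 CPM, n = 10) followed without a called difference. The venous spread was wide, with an SD of 554 CPM.

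Ftl1, the ferritin light chain (ENSMUSG00000050708, chr7:45457944-45459884), ran in another order, with microglia highest and SMCs lowest among the larger gates. Its lowest, median and highest levels were 1276, 1667 and 2540.2 CPM in microglia (1776 ± 440), 632, 801 and 1029 CPM in arterial cells (839.9 ± 129) and 222, 338 and 465 CPM in SMCs (336 ± 67.5; n = 11 each). These ranges did not overlap. Microglia exceeded arterial cells by 1.06 on the log2 scale in 11 of 11 mice (adjusted p = 0.00143, exact permutation test).

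Arterial cells exceeded capillary cells (781 ± 140 CPM) in Ftl1 by only 0.11, but in 11 of 11 mice (adjusted p = 0.00351, exact permutation test; 52.3% called). Venous cells (760.4 ± 108 CPM) did not differ from capillary cells by the test and exceeded fenestrated cells (647 ± 111 CPM) by 0.24 in 10 of 11 mice (adjusted p = 0.00626, exact permutation test; 49.2% called). Pericytes (525 ± 123 CPM) exceeded SMCs by 0.68 in 10 of 10 mice (adjusted p = 0.0112, exact permutation test; 29.7% called), and this difference was 0.23 with an adjusted p of 0.0648 when normalization factors were set across cell types. A processed copy listed as Ftl1-ps1 had 1.84 to 11.3 CPM in the larger gates, and reads shared with such copies make Ftl1 itself uncertain.

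**Figure D2:**
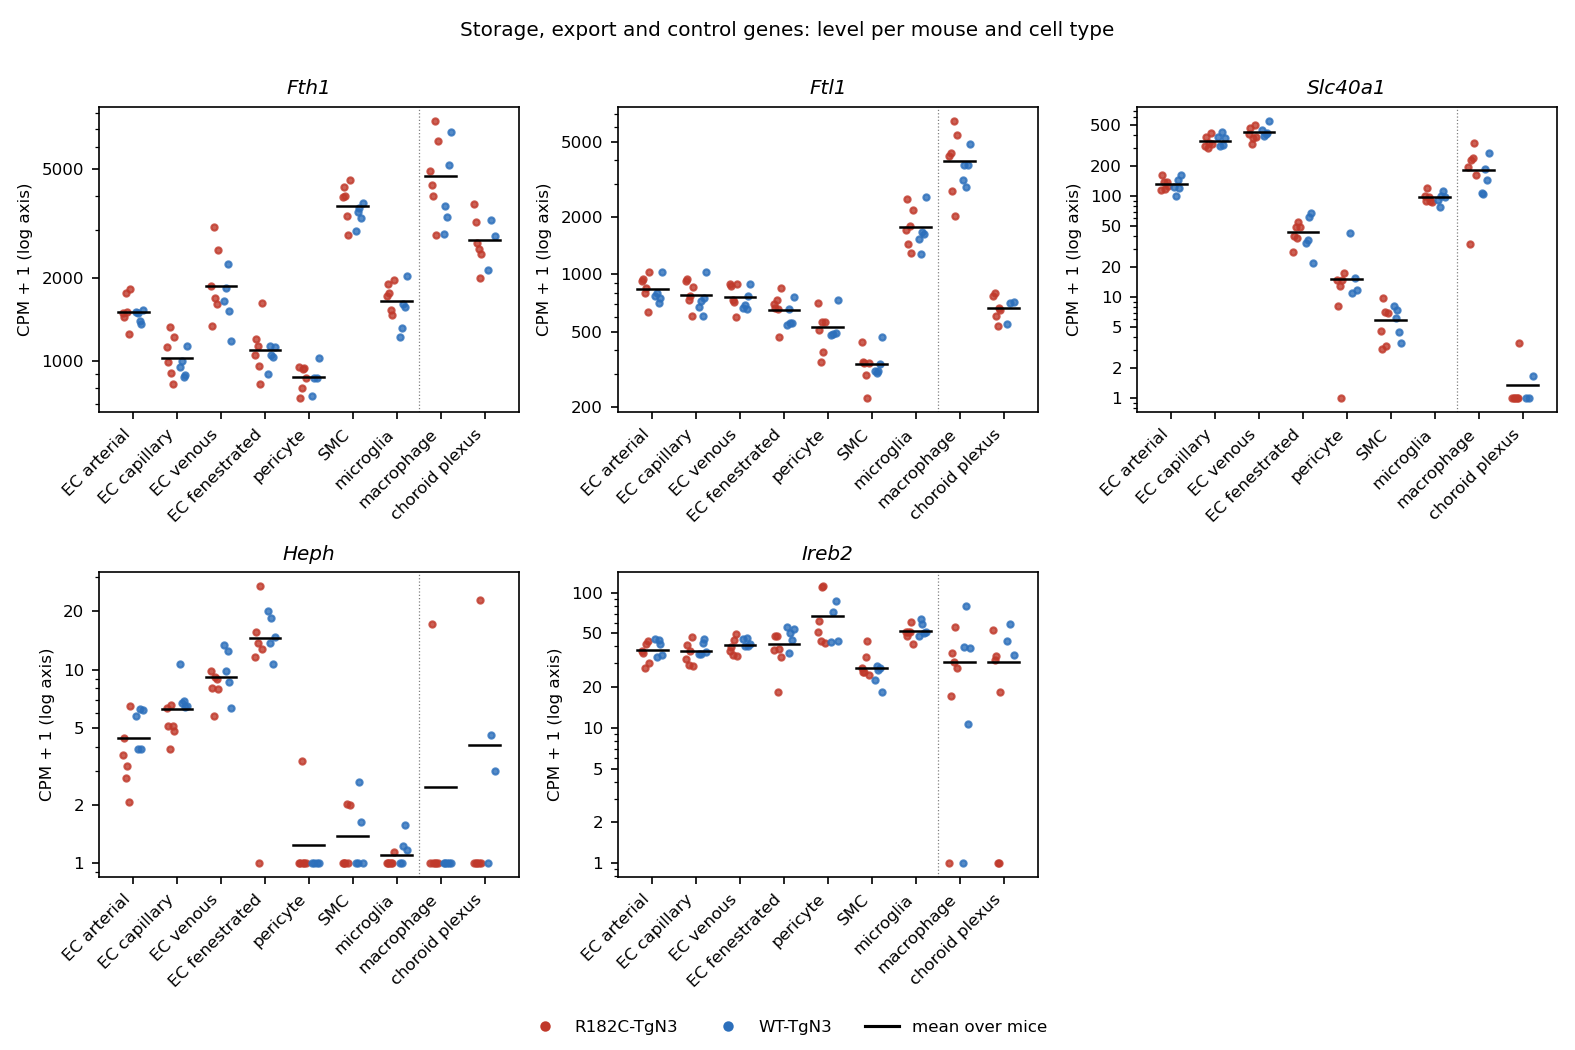
Level of the storage, export and control genes in each cell type, as CPM + 1 on a log axis, with 1 point per mouse coloured by genotype and a black line at the mean over mice. Types to the right of the dotted line use mice with at least 5 cells, the others mice with at least 20. Slc40a1 falls from 426 CPM in venous cells to 4.87 in SMCs and 0.351 in the choroid plexus, and Fth1 and Ftl1 are opposite in SMCs at 3649.5 and 336 CPM.

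The ratio of Fth1 to Ftl1 UMIs within a library does not depend on its size. The counts of these genes are not on 1 common scale, so the ratio was compared between cell types and between genotypes and is not a ratio of the subunits themselves. It was 8.07 at the lowest, 11.6 at the median and 13.4 at the highest in SMCs (11.1 ± 1.71, n = 11), and 1.33, 2.48 and 4.19 in venous cells (2.52 ± 0.812). No mouse had a ratio in any other large gate as high as its ratio in SMCs. The SMC ratio exceeded the venous ratio by 2.19 on the log2 scale in 11 of 11 mice (adjusted p = 0.00293, exact permutation test, adjusted over neighbouring types).

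Venous cells exceeded arterial cells (1.82 ± 0.215) in this ratio by 0.41 in 10 of 11 mice (adjusted p = 0.00732, exact permutation test). Arterial cells, pericytes (1.73 ± 0.374, n = 10) and fenestrated cells (1.70 ± 0.175) were not separated, and fenestrated cells exceeded capillary cells (1.33 ± 0.217) by 0.36 (adjusted p = 0.00586, exact permutation test). Microglia had the lowest ratio, with 0.951 ± 0.146, below capillary cells in 11 of 11 mice (adjusted p = 0.00293, exact permutation test). In all, 4 of the 6 neighbouring pairs passed the test. The ratio did not differ by the test between genotypes in any of the 7 types. In SMCs it was 11.8 ± 1.57 in CADASIL mice (n = 6) and 10.2 ± 1.51 in control mice (n = 5; p = 0.121, exact permutation test, adjusted p = 0.848).

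**Figure D3:**
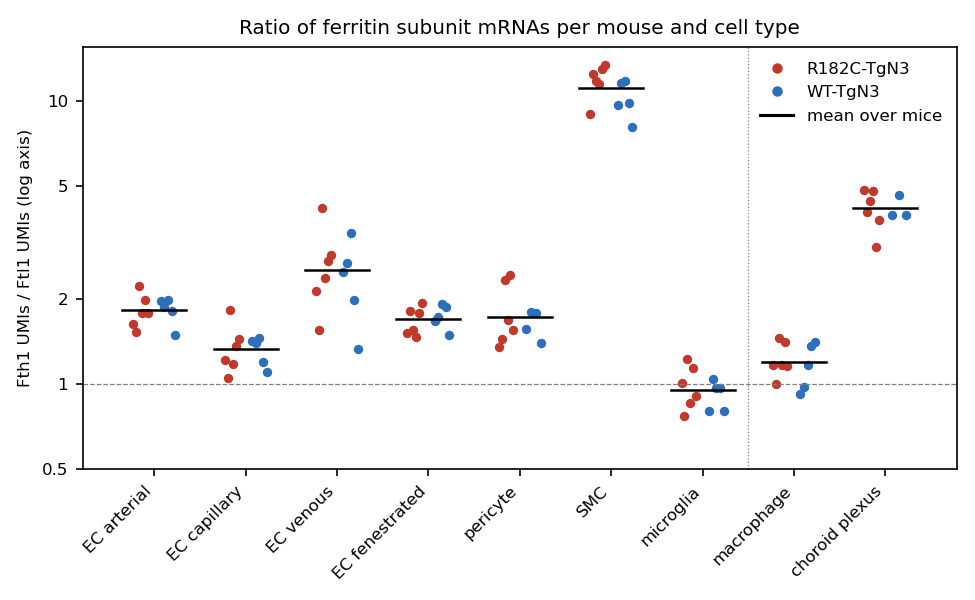
Ratio of Fth1 UMIs to Ftl1 UMIs per mouse and cell type on a log axis, with points coloured by genotype, a black line at the mean over mice and a dashed line at 1. Types to the right of the dotted line use mice with at least 5 cells. SMCs stand apart at a mean of 11.1, followed by the choroid plexus at 4.17 and venous cells at 2.52, and microglia lie near 1 at 0.951.

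Slc40a1, ferroportin, the cellular iron exporter (ENSMUSG00000025993, chr1:45908068-45926523), shared its leading cell types with Tfrc. Its lowest, median and highest levels were 324, 413 and 554 CPM in venous cells (426 ± 64.4), 296, 332 and 428 CPM in capillary cells (353 ± 45.6) and 99.1, 124 and 162 CPM in arterial cells (130.1 ± 19.3; n = 11 each). Venous and capillary ranges overlapped, and both lay above the arterial range. Venous cells exceeded capillary cells by 0.27 on the log2 scale (SD 0.16) in 10 of 11 mice (adjusted p = 0.00576, exact permutation test), the reverse of the order of Tfrc. Capillary cells exceeded arterial cells by 1.44 (SD 0.19), a 2.71-fold difference, in 11 of 11 mice (adjusted p = 0.00351, exact permutation test).

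Microglia also held Slc40a1, with a lowest, median and highest level of 76.7, 97.0 and 119.5 CPM (95.8 ± 12.1, n = 11). They were 0.43 below arterial cells in 11 of 11 mice (adjusted p = 0.00143, exact permutation test) and 1.21 above fenestrated cells (42.8 ± 14.2 CPM) in 11 of 11 mice (adjusted p = 0.00188, exact permutation test). Fenestrated cells exceeded pericytes (14.1 ± 10.999 CPM, 21 UMIs in all, n = 10) by 1.97 in 9 of 10 mice (adjusted p = 0.0146, exact permutation test), and SMCs had 4.87 ± 2.23 CPM. Pericytes and SMCs were not separated by the test (adjusted p = 0.169). The 10 endothelial markers together reached 740 CPM in pericytes and 211 CPM in SMCs, and their part in these low values was not tested. After thinning to 2000 UMIs, Slc40a1 was seen in 52.0% of venous, 45.8% of capillary and 19.9% of arterial cells, in 16.4% of microglia and in 1.12% of SMCs, and without thinning in 82.9%, 64.3%, 47.7%, 33.0% and 3.37%.

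Heph, hephaestin, a ferroxidase that works with ferroportin (ENSMUSG00000031209, chrX:96455359-96574485), was scarce, with 2327 UMIs in all kept cells. Among the larger gates it was seen mainly in endothelial cells. Its levels were 13.5 ± 6.46 CPM in fenestrated, 8.11 ± 2.27 in venous, 5.27 ± 1.75 in capillary and 3.41 ± 1.54 in arterial cells (n = 11 each). In fenestrated cells 10 mice had 9.74 to 26.1 CPM and R182C-TgN3 4 had none in 404414 UMIs from 68 cells. Fenestrated cells were above venous cells in those 10 mice, but the mean log2 difference of 0.43 (SD 1.28) was not called (adjusted p = 0.402, exact permutation test), and without R182C-TgN3 4 it was 0.79 with an adjusted p of 0.00696.

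Venous cells exceeded capillary cells in Heph by 0.54 in 10 of 11 mice (adjusted p = 0.00576, exact permutation test), and capillary cells exceeded arterial cells by 0.55 in 10 of 11 mice (adjusted p = 0.0200, exact permutation test). Arterial cells exceeded SMCs by 1.68 in 11 of 11 mice (adjusted p = 0.00191, exact permutation test; 75.1% called). SMCs, pericytes and microglia held 5, 1 and 7 UMIs of Heph in all, with means of 0.387, 0.239 and 0.101 CPM.

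Ireb2, iron regulatory protein 2, which binds the hairpins shown above (ENSMUSG00000032293, chr9:54863789-54912530), varied least among the 9 genes, with a 2.46-fold span from pericytes (65.8 ± 27.7 CPM, n = 10) to SMCs (26.75 ± 6.49 CPM, n = 11). Microglia had 51.2 ± 6.33 CPM, and fenestrated (41.0 ± 10.8), venous (40.3 ± 4.97), arterial (36.8 ± 6.02) and capillary cells (36.3 ± 6.26) lay close together. Microglia exceeded fenestrated cells by 0.36 in 9 of 11 mice (adjusted p = 0.0284, exact permutation test), a call lost without R182C-TgN3 1, 4, 5 or 6 or WT-TgN3 2 and with factors set across cell types (adjusted p of 0.0543 to 0.0553). Venous cells exceeded arterial cells by 0.13 in 10 of 11 mice (adjusted p = 0.0106, exact permutation test), a call lost without the 5% of cells with the most UMIs (adjusted p = 0.0895). Capillary cells exceeded SMCs by 0.44 in 11 of 11 mice (adjusted p = 0.00187, exact permutation test). The median gene was 0.31 higher in capillary cells than in SMCs and 0.23 higher than in pericytes, a shift that the Ireb2 difference from SMCs includes.

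Along the vessel, most iron genes were lower in arterial cells. Between arterial and capillary cells, 7 of the 9 genes were called, against 52.3% of 11987 genes. Of these, 5 were higher in capillary cells (26.2% of all genes) and 2, Fth1 and Ftl1, were higher in arterial cells (26.1%). Between arterial and venous cells, 7 genes were higher in venous cells (32.1% of 12025 genes) and Ftl1 alone was higher in arterial cells (27.1%). The Fth1 difference from venous cells was 0.27 in 9 of 11 mice (adjusted p = 0.0451, exact permutation test). The median size of the difference between arterial and venous cells was 1.09 on the log2 scale over the 9 genes and 0.21 over all genes.

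Between capillary and venous cells, 5 genes were higher in venous cells (28.4% of 11957 genes), namely Slc40a1, Heph, Slc11a2, Fth1 and Ireb2, and 2 were higher in capillary cells (24.8%), namely Tfrc and Trf. Fth1 was 0.84 higher in venous cells in 11 of 11 mice (adjusted p = 0.00352, exact permutation test). Trf differed by 0.26 at pooled levels of 6.25 and 4.79 CPM, beside 2.30 and 1.05 CPM of Mbp. The median depth of the capillary, arterial and venous gates was 3760, 6392 and 7508 UMIs per cell. The capillary gate also limited the markers of the other endothelial types. Without the 5% of cells with the most UMIs, it kept 13175 of 13179 cells and the venous gate 8249 of 9806. The part of depth and of this limit in these differences was not tested.

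**Figure D4:**
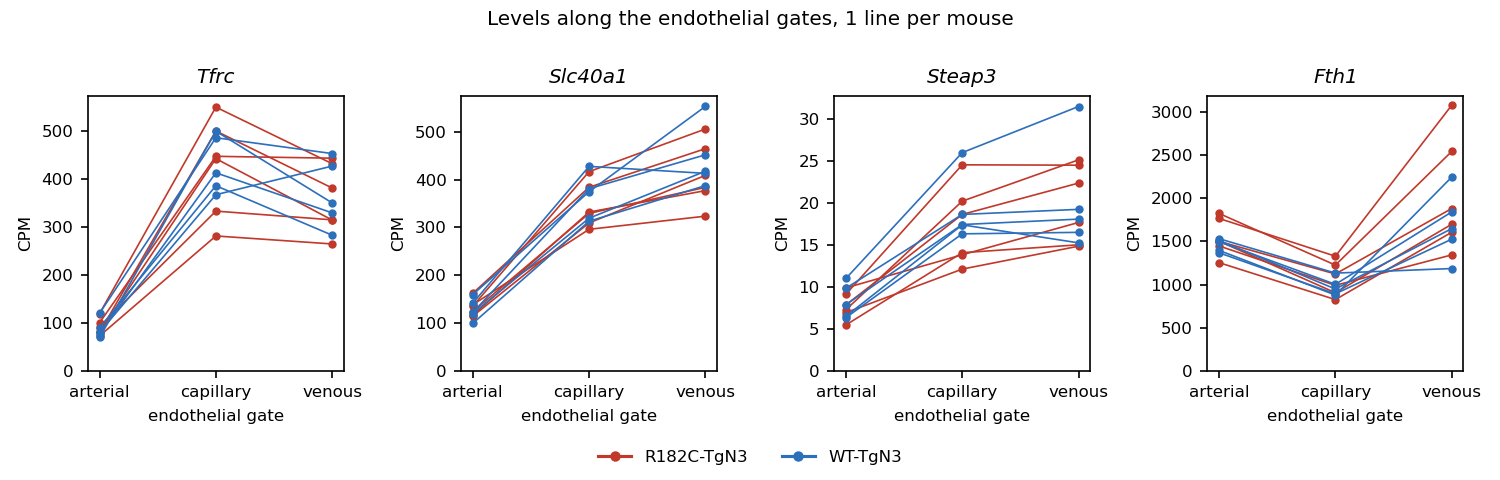
CPM of Tfrc, Slc40a1, Steap3 and Fth1 in arterial, capillary and venous endothelial gates, with 1 line per mouse coloured by genotype and axes that start at 0. Tfrc rises from 89.0 to 427 CPM between arterial and capillary cells and stays at 362 in venous cells, Slc40a1 rises further to 426 in venous cells, and Fth1 is lowest in capillary cells at 1022 CPM.

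Microglia and capillary cells differed in all 9 genes, where 85.9% of 12550 genes were called. Tfrc, Steap3, Slc40a1 and Heph were higher in capillary cells (47.3% of all genes), and Trf, Slc11a2, Fth1, Ftl1 and Ireb2 were higher in microglia (38.5%). Tfrc differed by 4.27 on the log2 scale (SD 0.32) and Trf by 5.83 (SD 0.40) in the opposite direction, each in 11 of 11 mice (adjusted p = 0.00143, exact permutation test). Over the 9 genes the median size was 1.87, against 0.82 over all genes.

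Macrophages, scavenger cells along the vessels, held more storage mRNA than microglia, in the 11 mice with at least 5 macrophages each. Fth1 was at 2863, 4364 and 7476 CPM at the lowest, median and highest mouse (4706 ± 1586), and Ftl1 at 2037, 3788 and 6434 CPM (3971 ± 1282). Trf was at 588, 873 and 1401 CPM (948 ± 281). Every mouse was higher in macrophages than in its own microglia for these 3 genes. The log2 differences were 1.46 (SD 0.39) for Fth1, 1.13 (SD 0.36) for Ftl1 and 1.26 (SD 0.46) for Trf, each with an adjusted p of 0.00680 (exact permutation test).

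These 3 genes were the members higher in macrophages, where 3.77% of 12231 genes were, and Ireb2 was the 1 that was lower, as were 33.4% of genes. In all, 37.1% of genes were called. Ireb2 was at 29.8 ± 23.7 CPM from 14 UMIs, against 51.2 CPM in microglia, with a log2 difference of -1.60 (SD 2.11). A sum this small can hold no UMI of a gene, which lowers the mean on the log2 scale. The part of this in the share of genes called lower was not tested. Slc40a1 was at 180 ± 84.0 CPM in macrophages against 95.8 in microglia and higher in 10 of 11 mice, a difference of 0.71 that was not called (adjusted p = 0.0629, exact permutation test). Macrophage sums rested on 18165 to 104289 UMIs per mouse. Microglial markers summed to 2547 CPM in macrophages and to 14584 CPM in microglia.

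The choroid plexus, the epithelium that makes cerebrospinal fluid, could be read in 9 mice. Slc40a1 was near absent there, with 2 UMIs in all, a mean of 0.351 CPM and none in 7 mice, against 354.5 CPM in the capillary cells of the same 9 mice. Trf was high and uneven, from 88.1 to 1250 CPM with a median of 185. Fth1 had 2765 ± 558 CPM, Ftl1 663.5 ± 92.8 CPM and Tfrc 13.6 ± 16.6 CPM. The Fth1 to Ftl1 ratio was 4.17 ± 0.579 there and 1.196 ± 0.187 in macrophages. Endothelial markers summed to 59.5 CPM over all choroid plexus cells. They reached 2322 CPM in the highest CADASIL mouse, against 81.4 CPM in the highest control mouse. The part of vessel RNA in the choroid plexus values was not tested. Slc11a2 was at 26.6 ± 26.8 CPM in the choroid plexus, and Heph at 3.07 ± 7.22 CPM from 5 UMIs in all. With cells of up to 20% mitochondrial UMIs, 510 choroid plexus cells from 11 mice gave 325 ± 140.5 CPM of Trf, 0.549 ± 0.698 CPM of Slc40a1 and a ratio of 4.66 ± 0.419. These cells held 19.0 ± 2.91 CPM of Slc11a2 and 5.17 ± 2.63 CPM of Heph, with 1.27 CPM of Heph in the lowest mouse.

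Genes whose pattern over cell types and mice was most like that of each iron gene were sought by Pearson's r of log2(CPM + 1) over 77 sums of a type in a mouse, among 10226 genes. These sums share libraries and depth, and r is given as a description. Tfrc was most like Igf1r, the insulin-like growth factor 1 receptor (r = 0.95), 1700042O10Rik (0.93) and Ndnf (0.91), and Slc40a1 most like St3gal6 (0.93), Atp8a1 (0.92) and the zinc transporter Slc39a10 (0.92). Trf was most like Cd164 (0.92), the lysosomal protease Ctsb (0.91) and Atp6ap2 (0.90). For Ftl1 they were Rab32, Npc2 and Cmtm6 (0.88 to 0.87), for Fth1 Pdgfc, Carns1 and Zfp612 (0.87 to 0.82), and for Heph Rtp3, Mcf2l and Ccdc85a (0.91 to 0.89). Steap3 was most like Slc16a9, Arhgap20 and Fcgrt (0.82 to 0.81), Slc11a2 most like Fgfr1op, Nup153 and Crlf3 (0.79 to 0.76) and Ireb2 most like Adnp, Snd1 and Ttll3 (0.79 to 0.77). Among the iron genes themselves, r over the same sums was 0.75 for Tfrc with Slc40a1, 0.65 for Tfrc with Steap3, 0.67 for Trf with Ftl1, and -0.20 for Fth1 with Ftl1.

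The wider list of iron genes held 42 others, such as regulators, ferrireductases, haem enzymes and mitochondrial iron proteins. Between arterial and capillary cells, 28 were expressed enough to test and 12 were called (42.9%, against 52.3% of all genes), 7 higher in arterial and 5 in capillary cells. Between capillary and venous cells 19 of 27 were called (70.4%, against 53.2% of all genes), 5 higher in capillary and 14 in venous cells. Lcn2 of this list is also a marker of the venous gate, and Cd163 of the macrophage gate. The gates themselves bear on the levels of both, and markers were not taken out of the counts given here. Between capillary cells and microglia 19 of 25 were called, or 76.0% against 85.9% of all genes, with 11 higher in capillary cells and 8 in microglia. Between arterial and venous cells 22 of 29 were called (75.9%, against 59.3% of all genes), 8 higher in arterial and 14 in venous cells. The share was thus below that of all genes in some pairs and above it in others. Among the remaining pairs it was 94.1% against 77.8% between venous cells and SMCs. It was 37.9% against 51.2% between pericytes and microglia.

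No iron gene was called as different between genotypes. CADASIL and control mice were compared by edgeR's quasi-likelihood test on UMIs summed per mouse, with the Benjamini-Hochberg method over all genes tested in a type. Over the 7 larger types, 50 tests of the 9 genes could be made (9 each in arterial, capillary and venous cells, 8 in fenestrated cells and in microglia, 5 in SMCs and 2 in pericytes), and 0 were called by edgeR or by DESeq2. Among all genes, edgeR called 0% in the endothelial types and in microglia, 0.0455% in pericytes and 0.0118% in SMCs. At an unadjusted p of 0.05, 1 of the 50 passed with either tool, where 2.02% of all tests passed with edgeR and 1.29% with DESeq2. Of the wider list, 0 of 145 tests were called.

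That 1 test was Heph in capillary cells, which had 2.90, 4.11 and 5.58 CPM at the lowest, median and highest of the 6 CADASIL mice and 5.43, 5.46, 5.69, 5.89 and 9.67 CPM in the 5 control mice. Only the highest CADASIL mouse overlapped with the control mice, and WT-TgN3 1 stood above the rest. The log2 fold change was -0.51 (SE 0.22, unadjusted p = 0.0308) and was not significant after adjustment (edgeR adjusted p = 1.00). Within batches 1, 3 and 4, the ones with both genotypes, every CADASIL mouse was below every control mouse, and with batch in the model the log2 fold change was -0.39 (unadjusted p = 0.103 in edgeR). Capillary cells held 274 Heph UMIs in all.

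For genes with more counts the intervals were narrower. Tfrc in capillary cells had 281, 444 and 549 CPM at the lowest, median and highest CADASIL mouse and 367, 385, 412, 485 and 499 CPM in the control mice. The groups overlapped throughout, and the log2 fold change was 0.02 with a 95% interval from -0.29 to 0.34. For Slc40a1 in venous cells, the levels were 324, 397 and 506 CPM in CADASIL mice and 388, 413, 418, 452 and 554 CPM in control mice, with a log2 fold change of -0.08 (95% interval from -0.32 to 0.16). Trf in microglia had a log2 fold change of 0.05 (from -0.17 to 0.27). Changes beyond these bounds are outside the intervals, and smaller ones could not be told from the spread between mice.

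Fth1 had a positive log2 fold change in 6 of the 7 types, from 0.12 in arterial cells to 0.31 in venous cells, with -0.02 in pericytes, and every interval held 0. In SMCs it was 0.20 (95% interval from -0.07 to 0.47). The same mice enter every type, so these types are not independent. R182C-TgN3 3 was the highest venous sample at 3079 CPM, and it was the only mouse of batch 2. It also had the most haemoglobin RNA over its kept cells of all types together, 11935 CPM, against 1335 to 7643 CPM in the other mice. In venous cells alone, its haemoglobin gene Hbb-bs was at 19.3 CPM, the highest venous value of that gene. The part of haemoglobin RNA or of batch in the Fth1 value was not tested.

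**Figure D5:**
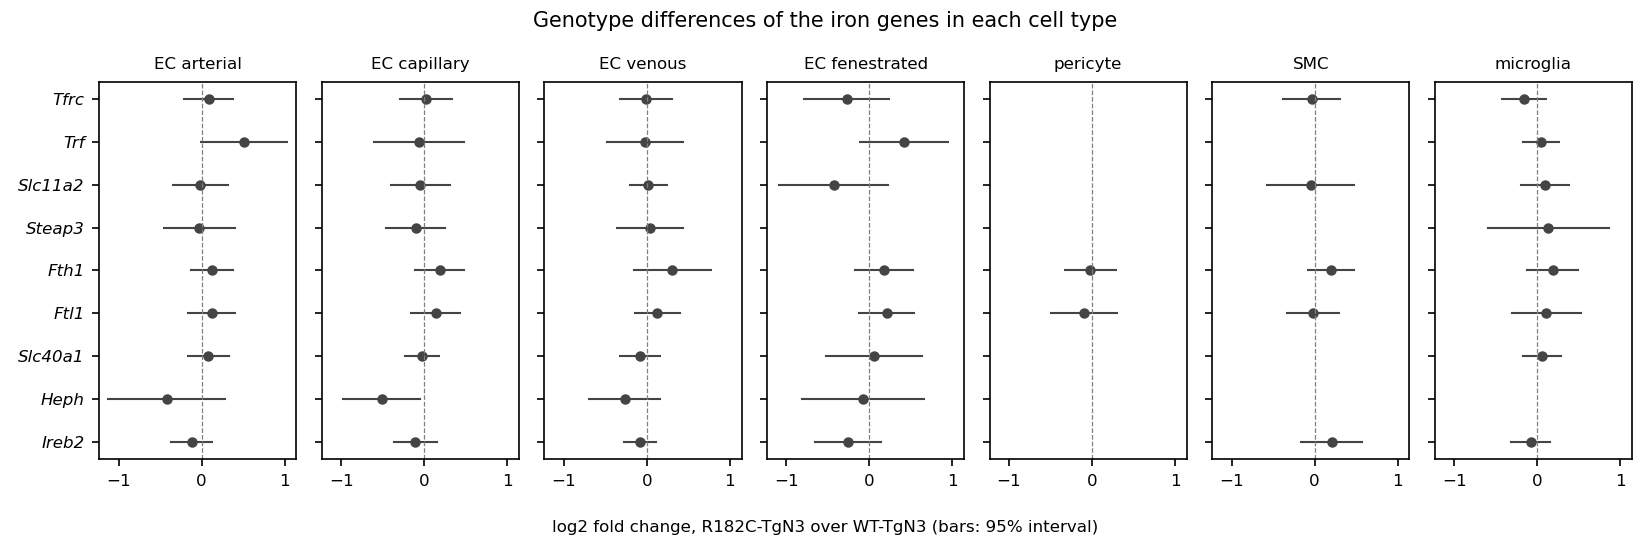
Log2 fold change of each iron gene between CADASIL mice and control mice in the 7 larger cell types, with points for the edgeR estimate and bars for its 95% interval, on a common axis. Genes too low to test in a type have no point. Every interval holds 0 except that of Heph in capillary cells, at -0.51.

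Mice of 9 and 6 months were compared in the same way with genotype in the model. The 9-month mice came from batches 1 and 2 and the 6-month mice from batches 3 and 4, so age and batch cannot be told apart. None of the 50 tests of the 9 genes was called by edgeR or DESeq2, and 5 of them passed an unadjusted p of 0.05 with edgeR and 7 with DESeq2, where 11.9% and 10.5% of all tests in the 7 types passed. The share of the iron genes was thus slightly below that of all genes with edgeR and above it with DESeq2, and the values that follow are a description. Among all genes, edgeR called 1.28% in arterial, 1.24% in capillary, 0.584% in venous and 0% in fenestrated cells, 0.091% in pericytes, 0.118% in SMCs and 0.804% in microglia.

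The 5 were Tfrc and Ftl1 in capillary cells, where 13.6% of all genes passed the unadjusted p, Heph in venous cells (13%), and Slc11a2 and Ftl1 in SMCs (8%). Tfrc in capillary cells had 281, 333, 367, 447 and 485 CPM in the 9-month mice, and 385, 470.4 and 549 CPM at the lowest, median and highest of the 6-month mice. These groups overlapped (log2 fold change -0.29, SE 0.13, edgeR adjusted p = 0.347). Slc11a2 in SMCs had 10.4, 13.2, 13.5, 14.0 and 14.1 CPM at 9 months and 4.96, 8.56 and 11.3 CPM at the lowest, median and highest at 6 months, which overlapped only through R182C-TgN3 3 and WT-TgN3 3 (log2 fold change 0.68, SE 0.23, edgeR adjusted p = 0.399). Slc11a2 had 4 to 44 UMIs per mouse there.

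In the wider list, 2 of 145 tests were called for age and both were higher at 9 months. Hmox1, haem oxygenase 1, which frees iron from haem, had 54.6, 57.5, 63.5, 74.9 and 80.4 CPM in the microglia of the 9-month mice, and 33.5, 40.4 and 44.2 CPM at the lowest, median and highest of the 6-month mice. The groups did not overlap. The log2 fold change was 0.75 (SE 0.11, edgeR adjusted p = 0.00605), where 0.228% of genes were called as higher, and it stayed past the threshold in every alternative run, with an adjusted p of 0.0264 at most. Pcbp2, an RNA-binding protein that also carries iron to ferritin, had 336, 356, 359, 361 and 363 CPM in the capillary cells of the 9-month mice, and 271, 276 and 299.8 CPM at the lowest, median and highest of the 6-month mice. The groups did not overlap (log2 fold change 0.32, SE 0.07, edgeR adjusted p = 0.0430; 0.629% of genes called as higher), but the adjusted p rose above 0.05, to 0.140 at most, when any mouse other than R182C-TgN3 6 or WT-TgN3 2 was left out. Neither gene was called between genotypes in these types (log2 fold change of -0.02 for Hmox1 in microglia and 0.11 for Pcbp2 in capillary cells, edgeR adjusted p = 1.00 for both).

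The genotype difference was also compared between the ages. None of the 50 tests of the 9 genes and 0% of all genes in each type were called for this interaction by edgeR, and none of the 50 passed an unadjusted p of 0.05, where 2.8% of all tests did. The smallest p was that of Tfrc in venous cells (log2 difference of -0.55, 95% interval from -1.11 to 0.02, edgeR adjusted p = 1.00). In macrophages and the choroid plexus, fitted from mice with at least 5 cells, 3 of the 9 genes could be tested in each, namely Trf, Fth1 and Ftl1. None was called for genotype or age by edgeR, which called 0.0378% of all genes for genotype in the choroid plexus and 0% in the other 3 fits.

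At an unadjusted p of 0.05, none of the 3 genes passed in macrophages, and in the choroid plexus Trf passed for genotype, where 6.54% of genes did, and Trf and Fth1 passed for age, where 5.51% did. Trf had 88.1, 96.8, 112.6, 145.9, 632.7 and 1250 CPM in the choroid plexus of the 6 CADASIL mice and 184.5, 215.4 and 248.4 CPM in the 3 control mice. The CADASIL mice lay on both sides of the control mice, with R182C-TgN3 2 and 3 above them and the other 4 below (log2 fold change 1.16, SE 0.55, edgeR adjusted p = 0.7495). For age the log2 fold change was 1.42 for Trf (SE 0.53) and 0.47 for Fth1 (SE 0.20; edgeR adjusted p = 0.838 for both).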

How the data were processed

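Cells were captured on the 10x Genomics Chromium system with a 3′ kit, with 1 library per mouse. Reads were aligned by the authors in Cell Ranger 7.0.0 to the mm10 transcriptome with human NOTCH3 added and deposited raw UMI counts per gene and called barcode, 17550806 to 64215050 per library. The members, gene lists and tests were chosen with earlier results of these data known.

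Barcodes with 500 genes or more and mitochondrial UMIs of up to 10% were gated on markers (at least 4 of 10, or of 8 for capillary and 6 for fenestrated cells). No doublet caller was run, and cells that passed the gates of unrelated types were left out. UMIs were summed per mouse and type for at least 20 cells. Macrophages and the choroid plexus, which did not reach this, were read from mice with at least 5 cells, chosen after seeing the data.

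Genotype, age (with genotype) and their interaction were tested with edgeR 4.0.16 (quasi-likelihood test, TMM, filterByExpr) in R 4.3.3, with DESeq2 1.42.0 as an alternative, without ribosomal, mitochondrial, Gm and Rik genes as in the study's methods. Cell types were compared by exact sign flips of log2(CPM + 1) with Python 3.11.15. Adjustment ran over all genes of a pair, in place of the planned one over the 54 neighbour pairs, which called the same 26. P-values measure the spread between these mice, and floors and shares cover counting error only.

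Named were the 9 genes, wider-list genes called for genotype or age, the 3 genes most like each by Pearson's r (mean of at least 20 CPM in a type, no marker), and Mbp and the haemoglobin genes as signs of free RNA; a further gene of that kind is not reported here. Scripts were tested on simulated data.

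Some labels give both genotypes the same replicate numbers within an age. Deviations of same-numbered mice correlated at 0.152 to 0.475 in microglia, where every pair was over 0.1, and at -0.183 to 0.351 in the other types, where they were not. Each such pair also shared a batch, and the part of batch in these correlations was not tested.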

Additional observations from a re-analysis of the deposited data

Results flagged for a closer look

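Of 114 groups of 4 to 10 mice checked for a sample that stood apart (Dixon's test), 6 were marked, or 5.26%, and chance marks about 1 in 20. All 6 were control mice with the highest value of their group.

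WT-TgN3 3 had the highest Steap3 of the control mice in venous cells, with 31.5 CPM against 15.2 to 19.2 in the other mice of that group, and in capillary cells, with 26.0 against 16.3 to 18.6 CPM. The same mouse had 21.1 CPM of Slc11a2 in venous cells, against 16.8 to 17.4. WT-TgN3 1 had 9.67 CPM of Heph in capillary cells, against 5.43 to 5.89. Ftl1 was at 735 CPM in the pericytes of WT-TgN3 4, against 477 to 489, and at 465 CPM in the SMCs of WT-TgN3 5, against 302 to 338.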

How the results depend on the processing

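No iron gene was called for genotype, age or their interaction under any alternative run. Of the 26 called neighbour pairs of cell types, 20 were called under every alternative, and the 6 lost in 1 or more are given with their values in the report. The count of called pairs ran from 24 to 27 over left-out mice and from 25 to 31 over the other alternatives. The Fth1 to Ftl1 ratio of fenestrated cells was 1.89 with 1 marker fewer needed, and its other values moved by less than 1 SD.

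Counts over all genes moved more. For age, DESeq2 called 309 genes in arterial, 247 in capillary, 244 in venous and 11 in fenestrated cells and 237 in microglia. With sex as a covariate, 3 genes were called for age in fenestrated cells and 1 in pericytes, and with 1 more marker needed, 4 in fenestrated cells. For genotype, DESeq2 called 1 gene in capillary cells, and in pericytes 35 genes were called with no filter on low counts, 6 with batch as covariate and 10 with the replicate block, which changed no other call. Pcbp2 in capillary cells was past the threshold for age with DESeq2 but not with sex as a covariate (edgeR adjusted p = 0.0555) or with 1 more marker needed (0.0536).

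Leaving out single mice gave 41 (without WT-TgN3 5) to 295 (R182C-TgN3 6) genes for age in arterial cells, 23 (WT-TgN3 5) to 252 (R182C-TgN3 3) in capillary, 2 (R182C-TgN3 4) to 177 (R182C-TgN3 3) in venous and 0 to 4 in fenestrated cells, 1 to 16 in pericytes, 7 to 21 in SMCs and 20 (R182C-TgN3 4) to 405 (R182C-TgN3 3) in microglia. For genotype it gave 1 to 2 genes in SMCs and 1 to 5 in pericytes, and for the interaction 0 to 39 (WT-TgN3 4) in fenestrated cells and 0 to 2 in pericytes. The cause was not tested. Depth left Heph and Steap3 testable for genotype in 4 of the 7 types each, and Steap3, Trf and Slc40a1 in pericytes rest on 21 to 26 UMIs.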
